A study of Arabidopsis thaliana with 9 samples.

Results

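The FAF genes of Arabidopsis thaliana are a plant-specific family of meristem size genes with 4 members, FAF1 (AT4G02810), FAF2 (AT1G03170), FAF3 (AT5G19260) and FAF4 (AT3G06020). The members were taken by locus, and all 4 have a probe set on the Affymetrix ATH1 array, out of 13384 loci with a named probe set. In the shoot apical meristem, WUSCHEL (WUS) maintains the stem cells, and these secrete the CLAVATA3 (CLV3) peptide, which restrains WUS. FAF proteins feed into this loop, since plants that make too much of a FAF protein have little WUS transcript and a small or arrested meristem. FAF2 transcript is found in the centre of the meristem, and FAF1 and FAF3 transcripts mainly in the vasculature. An axillary bud holds such a meristem at rest, auxin from the main shoot apex keeps it at rest, and cytokinin (CK) supplied to the node activates it.

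Buds were harvested from isolated stem segments of wild-type Col-0, each bearing its first cauline bud, after 18 h on split agar plates. By their labels, segments received 1 µM of the auxin NAA apically with 1 µM of the CK BA basally (NAA+BA), 1 µM NAA apically alone (NAA), or ethanol apically as the solvent control (mock). Each group has 3 biological replicates, each on 1 array, and the values are RMA-normalised log2 expression values of 22810 probe sets. Segments had neither roots nor a shoot apex, and the values stand for whole buds, in which fewer cells of a type and less RNA per cell cannot be told apart. Of the bud markers listed, the boundary gene CUC3 averaged 6.54 and CLV3 4.27 over the 9 arrays, and the leaf gene RCA, for Rubisco activase, 13.1. WUS, STM and BRC1 have no named probe set here and are not analysed here.

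Data S1 of the paper, a table of selected transcripts, names the mock and NAA groups the opposite way round from the labels. For all 4 FAF genes, the sign of the auxin effect in Data S1 is that of the arrays only when these 2 names are exchanged, and for 0 of 4 when they are kept. The same holds for all 220 entries of that table, of which 0 match by the labels. Groups are called here by their labels, so that each direction below that involves NAA or mock holds for the arrays labelled so. Since 0 of the 220 entries match by the labels, no direction given by label is read as an effect of auxin. The names of the FAF probe sets come from Data S1 alone, and the study chose its entries on these arrays, among transcripts that are low on the arrays labelled mock. Their calls against mock are therefore a description and no independent evidence.

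All 4 FAF transcripts were lowest on the arrays labelled mock, and by their estimates the members fell into 2 patterns above that level. This grouping is a description, since the test between members given below could not call any difference. FAF2 and FAF4 made nearly the whole of their rise between mock and NAA, with little further difference on NAA+BA. FAF1 and FAF3 were higher on NAA than on mock and, by estimates of more than 2-fold that did not pass the test, higher again on NAA+BA. The difference from mock to NAA is called the first step below and the difference from NAA to NAA+BA the second step, both on the log2 scale.

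FAF2 had the larger contrast between its 2 steps. Its log2 expression value was 10.04, 9.60 and 8.95 on the NAA+BA arrays, 9.75, 9.41 and 8.85 on the NAA arrays, and 6.03, 6.37 and 6.62 on the mock arrays, in order of replicate number. NAA+BA and NAA both lay wholly above mock and overlapped each other. The means were 9.53 ± 0.55 on NAA+BA, 9.33 ± 0.46 on NAA and 6.34 ± 0.30 on mock (SD, n = 3 each). The first step was 3.00 (standard error 0.30, 7.97-fold, adjusted p = 5.21e-04 from limma), the largest increase among all 22810 probe sets. The second step was 0.20, with a 95% interval of -0.48 to 0.87 (adjusted p = 0.9996 from limma). The first step made up 93.9% of the whole rise from mock to NAA+BA, and 86.1% to 102% when each array was left out in turn.

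FAF4 showed the same split in smaller steps. It stood at 6.08, 6.17 and 5.93 on the NAA+BA arrays, 6.02, 5.75 and 5.80 on the NAA arrays and 4.57, 4.51 and 4.59 on the mock arrays. Again NAA+BA and NAA overlapped each other and neither overlapped mock. The means were 6.06 ± 0.12 on NAA+BA, 5.86 ± 0.15 on NAA and 4.56 ± 0.04 on mock (SD, n = 3 each). FAF4 rose by 1.30 in the first step (standard error 0.12, 2.46-fold, adjusted p = 3.79e-04 from limma). The second step was 0.20, with a 95% interval of -0.06 to 0.47 (adjusted p = 0.9996 from limma), so that the first step was 86.4% of the rise. Its mock values lay below 5, where background adds to the signal of a probe set and compresses its fold changes.

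FAF1 had 3 separate levels. Its values were 9.40, 8.86 and 8.31 on the NAA+BA arrays, 7.73, 7.73 and 7.71 on the NAA arrays and 5.71, 6.00 and 5.88 on the mock arrays. No array of a group reached into the next group. The means were 8.86 ± 0.54 on NAA+BA, 7.72 ± 0.01 on NAA and 5.86 ± 0.15 on mock (SD, n = 3 each). The first step was 1.86 (standard error 0.23, 3.62-fold, adjusted p = 0.00127 from limma) and made up 62.1% of the rise. The second step was estimated at 1.13, with a 95% interval of 0.62 to 1.65, and did not pass the test (unadjusted p = 6.18e-04, adjusted p = 0.901 from limma).

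FAF3 was the member with the larger estimate in the second step. It stood at 9.82, 9.11 and 8.47 on the NAA+BA arrays, 7.59, 7.73 and 7.64 on the NAA arrays and 6.40, 6.11 and 7.04 on the mock arrays. Its 3 groups did not overlap either, and mock replicate 3 stood nearest to the NAA arrays. The means were 9.13 ± 0.68 on NAA+BA, 7.65 ± 0.07 on NAA and 6.52 ± 0.48 on mock (SD, n = 3 each). The first step was 1.14 (standard error 0.32, 2.20-fold, adjusted p = 0.0369 from limma) and made up 43.4% of the rise. The second step was estimated at 1.48, with a 95% interval of 0.76 to 2.20, and ranks 11 among the increases of all probe sets, without passing the test (unadjusted p = 0.00103, adjusted p = 0.954 from limma). The call of FAF3 in the first step was lost without mock replicate 1 or 2, any NAA array or NAA+BA replicate 2 (adjusted p 0.0574 to 0.131 from limma).

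**Figure D1:**
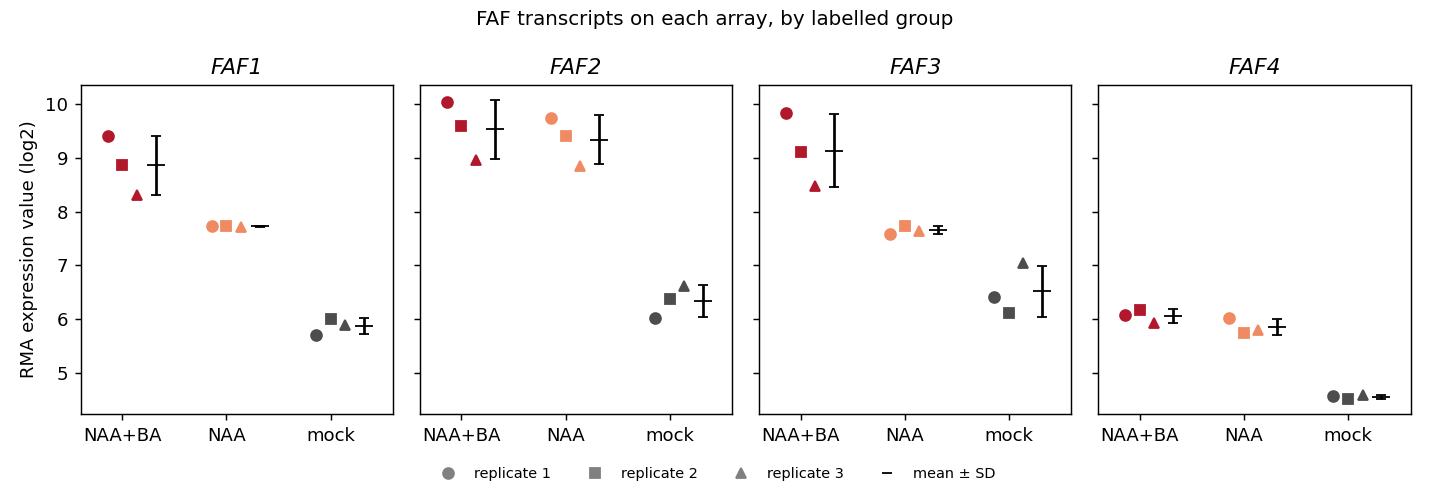
Log2 expression values (y axis) of FAF1, FAF2, FAF3 and FAF4 on each array of the groups labelled NAA+BA, NAA and mock (x axis), with 1 symbol per replicate number and the mean ± SD beside the points. The groups NAA+BA and NAA overlap for FAF2 and FAF4 and do not for FAF1 and FAF3, and heights are not comparable between genes, since each has its own probe set.

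By count, all 4 members were called higher on NAA than on mock, where 1.28% of all probe sets were, and all 4 were higher on each NAA array than on any mock array, where 17.3% of all probe sets were. Between NAA+BA and mock all 4 were called higher as well, against 2.19% of all probe sets, and all 4 did not overlap, against 18.8%. In that comparison, the log2 fold change was 3.19 for FAF2 (9.13-fold), 2.99 for FAF1 (7.96-fold), 2.62 for FAF3 (6.13-fold) and 1.50 for FAF4 (2.83-fold). These rank 5, 7, 9 and 79 among the increases of 22810 probe sets, with adjusted p from 2.87e-04 to 0.00153 from limma. The median of the 4 was 2.80, beside 0.02 over all probe sets. The members are named only through Data S1, whose entries were chosen on these arrays for low values on mock. These counts, ranks and medians against mock are therefore a description, and nothing is read from them against the shares of all probe sets.

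Between NAA+BA and NAA, limma called 0 of the 4 members, where 0.00877% of all probe sets were called higher. At an unadjusted p under 0.05, 2 members passed, FAF1 and FAF3, and 2.49% of all probe sets did. FAF1 and FAF3 were also the 2 members without overlap between these groups, a property of 5.27% of all probe sets. With weights given to the arrays by how closely each follows the fit, FAF1 at 1.23 and FAF3 at 1.56 were both called (adjusted p = 0.0147 each from limma), where 0.127% of all probe sets were called higher. In that fit the NAA mean rested mainly on replicate 2, with a weight of 5.01 against 1.63 and 0.235 for replicates 1 and 3.

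Whether the steps of a gene differ was tested in the same fit, as the first step minus the second. The NAA arrays enter both steps with opposite sign, and the standard errors take this into account. The difference was 2.80 for FAF2 (standard error 0.52, adjusted p = 0.0359 from limma) and 1.09 for FAF4 (standard error 0.21, adjusted p = 0.0372), so that 2 of 4 members were called with a larger first step, beside 0.267% of all probe sets. Since Data S1 holds transcripts with a large first step, its choice favours a larger first step in the members, and nothing is read from this count against that share. The difference was 0.72 for FAF1, with a 95% interval of -0.16 to 1.61 (adjusted p = 0.443), and -0.34 for FAF3, with a 95% interval of -1.59 to 0.90 (adjusted p = 0.819). Both calls sat close to the threshold. That of FAF2 was lost without mock replicate 1 or 2, NAA replicate 1 or 2, or NAA+BA replicate 2 or 3 (adjusted p 0.0602 to 0.197 from limma), and that of FAF4 without each array in turn except mock replicate 3 (adjusted p 0.0690 to 0.227).

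**Figure D2:**
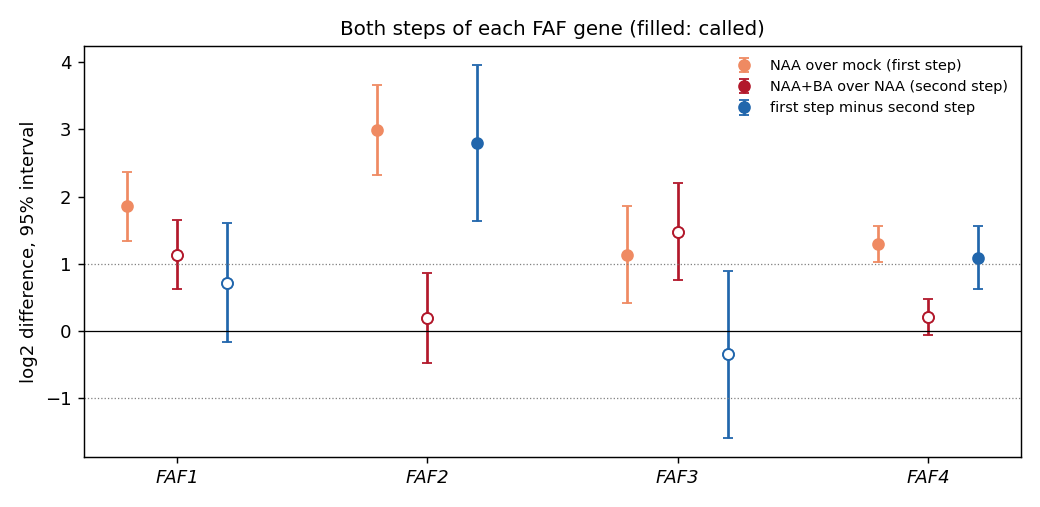
Log2 difference (y axis) of each FAF gene (x axis) in the first step, NAA over mock, in the second step, NAA+BA over NAA, and for the first step minus the second, as estimates with 95% intervals from limma. Filled points were called (adjusted p under 0.05 and 2-fold or more), and the difference between the steps was called for FAF2 at 2.80 and FAF4 at 1.09.

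The members were also set against each other in the size of each step, from the difference of 2 members' log2 values on the same array. In the second step, FAF3 exceeded FAF2 by 1.28 ± 0.29 and FAF4 by 1.28 ± 0.37, and FAF1 exceeded FAF2 by 0.94 ± 0.26 and FAF4 by 0.93 ± 0.29 (difference ± standard error, 3 arrays per group). FAF3 exceeded FAF1 by 0.35 in that step (FAF1 minus FAF3, -0.35 ± 0.09). FAF2 and FAF4 differed by -0.01 ± 0.35 there. In the first step, FAF2 exceeded FAF3 by 1.86 ± 0.35 and FAF4 by 1.70 ± 0.28, and FAF1 minus FAF2 was -1.14 ± 0.29. Of the 12 differences, 6 in each step, 10 had the smallest p an exact two-sided permutation test allows with 3 arrays against 3, which is 0.10 (adjusted 0.12), so that this test cannot call any of them at 0.05. The remaining pairs were FAF3 and FAF4 in the first step and FAF2 and FAF4 in the second (exact p = 0.70 and 0.90).

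On the NAA+BA arrays, FAF1, FAF2 and FAF3 varied far more between replicates than most transcripts. Their SD over the 3 arrays was 0.54, 0.55 and 0.68, beside a median of 0.14 over all probe sets, and was larger than that of at least 98.6% of them. All 3 were highest on replicate 1 and lowest on replicate 3, and FAF4 was lowest on replicate 3 as well. Over all probe sets, 35.1% were lowest on that array. The array was also lowest for all 8 CK response genes with a named probe set, with 5.38 on replicate 3 against 6.91 and 6.81 on the others for ARR5 and 6.81 against 8.04 and 7.78 for ARR6, both type-A response regulators. Without NAA+BA replicate 3, the second step was 1.41 for FAF1 (adjusted p = 0.0971 from limma) and 1.81 for FAF3 (adjusted p = 0.300). The NAA arrays lay closer together for FAF1 (SD 0.01) and FAF3 (0.07) than for FAF2 (0.46), for which NAA replicate 3 was the lowest. What sets this spread was not tested.

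Few transcripts had estimates as high in both steps as FAF1 and FAF3. Among 22810 probe sets, 7 had a log2 fold change of 1 or more in each step (0.0307%). Besides FAF1 and FAF3 these belong to ARR5, ARR6 and ARR15, CKX5, whose product degrades CKs, and AT1G62480, annotated as similar to a vacuolar calcium-binding protein. These 5 genes were picked for naming after their values were seen, and all are entries of Data S1. A first step of 1 or more with a second step within 0.25 of 0, as in FAF2 and FAF4, was found in 202 probe sets (0.886% of all). Both counts are of the 339 probe sets with a first step of 1 or more, a size that the choice of Data S1 favours. Among these 339, the pattern of FAF2 and FAF4 was that of most, with 202, and the pattern of FAF1 and FAF3 that of few, with 7.

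**Figure D3:**
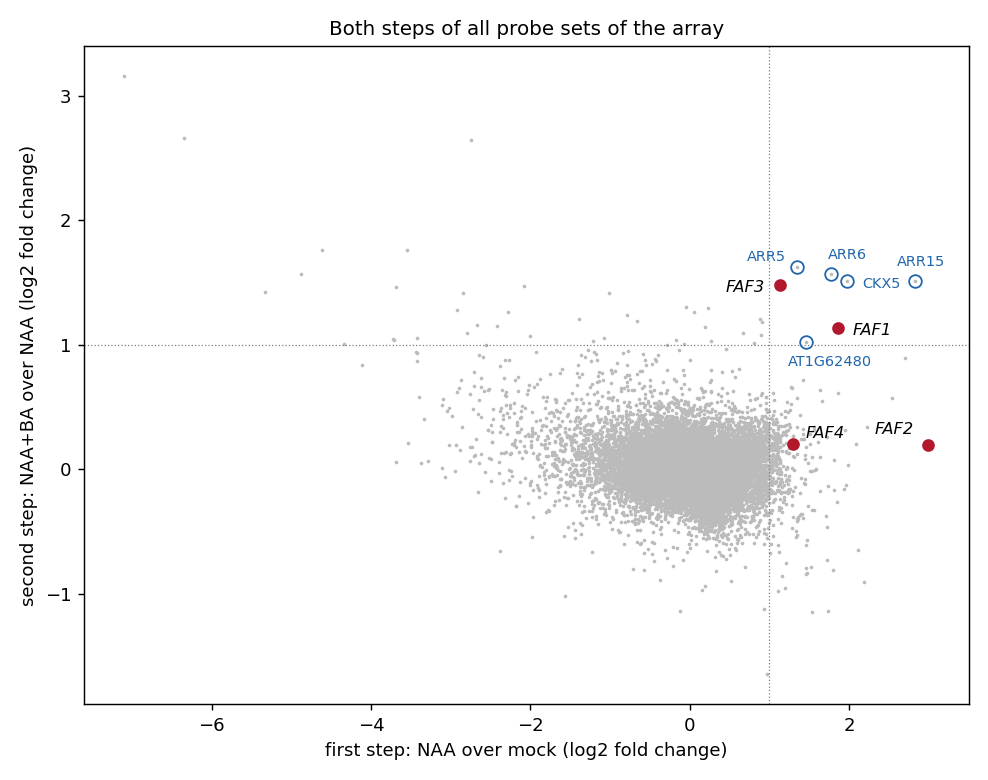
The first step, NAA over mock (x axis), against the second step, NAA+BA over NAA (y axis), as log2 fold changes of all 22810 probe sets (grey), with the FAF genes in red and the other 5 genes at or above 1 in both steps (dotted lines) as open blue circles. FAF1 and FAF3 lie among these 7, while FAF2, at 3.00, lies furthest to the right of all probe sets with a second step of 0.20.

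The genes most like each FAF gene over the 9 arrays were found by the root mean square difference of log2 values, each less its own mean, a measure of both the shape and the size of the changes, given here as a description. For FAF1 these were ARR6 (0.263) and ARR4 (0.303), both type-A response regulators, which CK induces, and CKX5 (0.327). For FAF2 they were ARR7 (0.407), a further type-A response regulator, ERD5 (0.445), the proline oxidase gene AtPOX, and ARR4 (0.547). FAF3 was closest to FAF1 (0.392), ahead of AT1G62480 (0.394) and GBF6 (0.441), which encodes a bZIP transcription factor. For FAF4 they were RLP44 (0.114), which encodes a receptor-like protein, IQD17 (0.137), of a family of calmodulin-binding proteins, and AT1G16830 (0.163). Each of these also ranked from 1 to 3 for its member among all probe sets, named or not. All are entries of Data S1. By Pearson's r over the 9 arrays, among the 2453 probe sets with an SD of 0.5 or more, the most similar named genes were instead ARR15 for FAF1 (0.99), RLP44 for FAF2 (0.99), ARR6 for FAF3 (0.96) and ARR7 for FAF4 (0.99).

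Within the family, FAF3 stood at rank 6 for FAF1 among the other 22809 probe sets, and FAF1 was the nearest of all to FAF3. FAF2 stood at rank 15 for FAF1 and at rank 573 for FAF3, and FAF1 at rank 4 for FAF2. By the root mean square difference FAF4 stood at ranks 37, 42 and 46 for FAF1, FAF2 and FAF3. Seen from FAF4, however, FAF1 (0.663), FAF3 (0.677) and FAF2 (0.857) stood at ranks 9833, 10913 and 18879. No other member was thus among the probe sets near FAF4 by this measure. Over the shape of its profile alone, FAF2 was the member most like FAF4 (Pearson's r = 0.98, against 0.95 for FAF1 and 0.84 for FAF3, over 9 arrays of 3 groups).

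**Figure D4:**
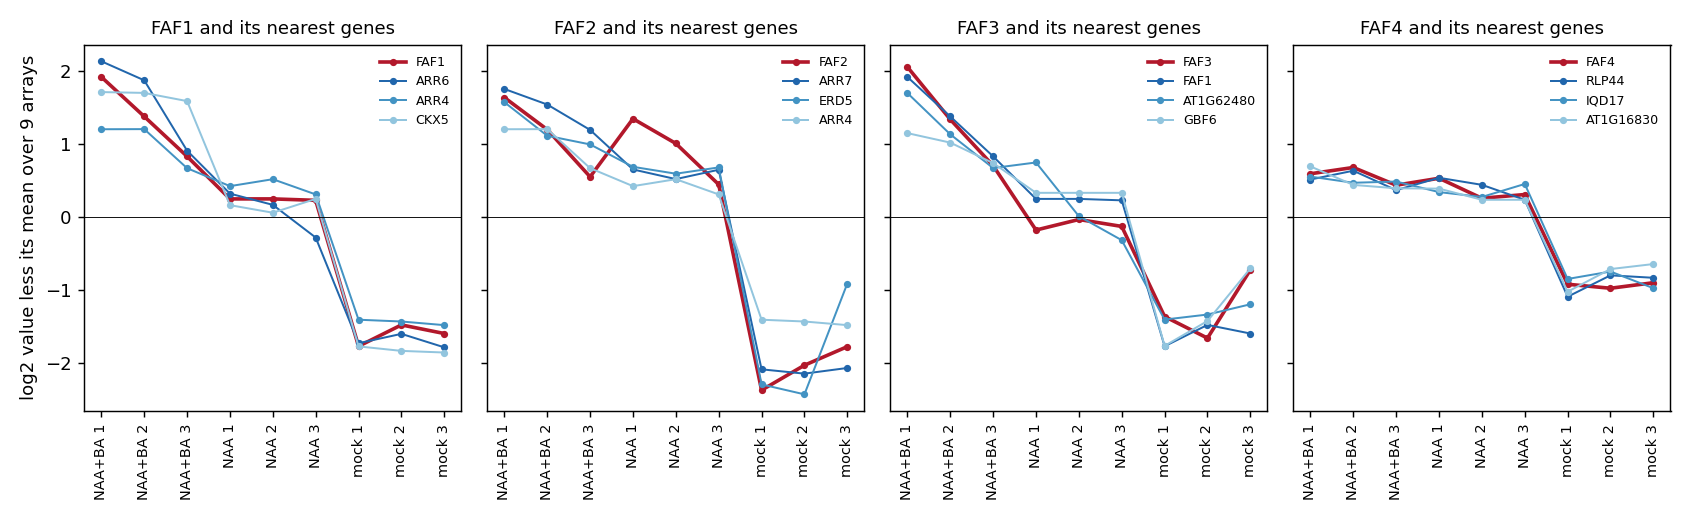
Log2 values less their mean over the 9 arrays (y axis) for each FAF gene (red) and its 3 nearest named genes (blue), on each array by labelled group and replicate number (x axis), where lines only join the points of a gene. ARR6, like FAF1, is lowest of the NAA+BA arrays on replicate 3, and FAF2 keeps its level on NAA. RLP44 tracks FAF4 with a root mean square difference of 0.114.

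The type-A ARR genes, which CK induces, were set beside the FAF genes on the same arrays. For ARR5 and ARR6, as for FAF1 and FAF3, the steps were not shown to differ, with 1.35 and 1.63 in turn for ARR5 (first minus second -0.28, adjusted p = 0.882 from limma) and 1.78 and 1.57 for ARR6 (0.20, adjusted p = 0.883). The mock values of ARR5 (3.09 to 3.66) and ARR6 (4.11 to 4.30) lay below 5, where background compresses fold changes. The NAA mean of ARR5 (4.74) did as well. For ARR7, with steps of 2.71 and 0.89, the first was larger by 1.82 (adjusted p = 0.0131 from limma), yet its second step was above those of FAF2 and FAF4, and its NAA+BA arrays (10.66 to 11.22) lay wholly above its NAA arrays (9.98 to 10.12). ARR4 had steps of 1.86 and 0.61 and ARR15 of 2.83 and 1.51, with differences of 1.25 and 1.32 that were not called (adjusted p = 0.0545 and 0.0768 from limma). The list of 17 CK response genes has 8 with a named probe set, and 7 of these are entries of Data S1. CRF5, of this list, had steps of 1.09 and 0.12 (first minus second 0.97, adjusted p = 0.0613 from limma). Its second step was thus as small as those of FAF2 and FAF4. ARR16 had steps of 0.96 and 0.48 (0.48, adjusted p = 0.713 from limma). Of the 8, 7 were called higher on NAA than mock, where 1.28% of all probe sets were. All 8 were called higher on NAA+BA than mock, where 2.19% of all probe sets were. Between NAA+BA and NAA 1, CKX5, was called, where 0.00877% of all probe sets were called higher. Since the entries of Data S1 were chosen on these arrays for low values on mock, nothing is read from the counts against mock.

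Of 39 other genes listed for meristem maintenance, 7 have a named probe set. Of the 7, 1, CUC3, an organ boundary gene and the only entry of Data S1 among the 7, was called. It was higher by 1.23 on NAA than mock and by 1.69 on NAA+BA than mock (adjusted p = 0.00730 and 0.00220 from limma). Of all probe sets, 1.28% were called higher than mock on NAA and 2.19% on NAA+BA. The FAF genes and CUC3 are entries of Data S1, chosen on these arrays for low values on mock. No contrast between them and the other meristem genes is therefore read from these calls. CLV3 stood at 4.45 on NAA+BA, 4.21 on NAA and 4.17 on mock, a low signal with differences from mock of 0.28 on NAA+BA and 0.04 on NAA (adjusted p = 0.519 and 0.940). POL, a phosphatase gene that acts downstream of CLV signalling, differed by 0.57 on NAA+BA and 0.47 on NAA, and PHV, an HD-ZIP III gene, by 0.59 and 0.55, all below 2-fold, with adjusted p from 0.00745 to 0.0404. ULT1 differed by 0.38 and 0.54 and did not pass the adjusted p in either comparison (0.151 and 0.0527 from limma). The median of the 7 was 0.38 between NAA+BA and mock and 0.47 between NAA and mock, against 0.02 and 0.04 over all probe sets.

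Since FAF1 and FAF3 are known from the vasculature, vascular markers were listed too, and 3 of 18 have a named probe set. LHW, CLE41 and CLE44 differed from mock by 0.13, 0.39 and 0.44 on NAA+BA and by 0.27, 0.42 and 0.40 on NAA. Of the 3, 0 were called, where 5.44% of all probe sets were called in either direction on NAA+BA and 4.78% on NAA. At these shares, 0 calls among 3 genes do not set them apart from other transcripts. At an unadjusted p under 0.05 from limma, CLE41 and CLE44 passed in both comparisons and LHW on NAA only, where 31.9% of all probe sets passed on NAA+BA and 31.6% on NAA. The leaf gene RCA stood at 12.79 on NAA+BA, 13.04 on NAA and 13.60 on mock, lower by 0.81 and 0.56 than on mock and not called for its size. The part of cell composition in the FAF values was not tested. The reference gene UBC21 differed by at most 0.02 in any comparison, and TIP41L by at most 0.18.

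Of 2 genes listed here as relatives of the FAF genes from general knowledge, 1, AT1G54740, has a named probe set. It has no such name in the tables used here, and it was highest on mock. It averaged 4.19 on NAA+BA, 4.48 on NAA and 5.87 on mock. It fell by 1.68 on NAA+BA (adjusted p = 0.00169 from limma) and by 1.39 on NAA (adjusted p = 0.00303), both relative to mock. Its second step of -0.29 was not called. Of all probe sets, 3.25% were called lower than mock on NAA+BA and 3.51% on NAA. The FAF genes were named through Data S1, whose entries were chosen for low values on mock, so that no contrast with them is read.

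The FAF genes lie on 4 different chromosomes by their locus names, and the genes beside them were examined too. Of the genes up to 3 places away in the RefSeq order of TAIR10.1, 11 have a named probe set. On NAA 0 of the 11 were called against mock, where 4.78% of all probe sets were called in either direction. Their log2 fold changes ran from -0.19 to 0.91, and 5 of the 11 had an adjusted p under 0.05 from limma whatever their fold, beside 18.3% of all probe sets. On NAA+BA 1 was called, where 5.44% of all probe sets were, AT4G02820 beside FAF1, at 1.03 (adjusted p = 0.00336 from limma), and between NAA+BA and NAA the 11 lay between -0.28 and 0.33.

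Where the arrays are instead named as in Data S1, the same values read as follows. All 4 FAF transcripts fell with auxin, by 3.00 for FAF2, 1.86 for FAF1, 1.30 for FAF4 and 1.14 for FAF3, and all 4 rose when CK was added to auxin, by 3.19, 2.99, 1.50 and 2.62 in the same order. The comparison of NAA+BA with the control is then the one with 0 calls, in which FAF3 at 1.48 and FAF1 at 1.13 had estimates above 1 and FAF2 and FAF4 stood at 0.20 each. The intervals of these differences are those given above for the second step.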

How the data were processed

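Buds of the groups labelled NAA+BA, NAA and mock were measured on 9 ATH1 arrays. The authors normalised the arrays with RMA in R 2.15, and the deposited log2 values were used without change. RMA gives all arrays a like distribution and compresses the fold changes of dim probe sets. Medians of the arrays ranged from 6.99 to 7.11. Precision is limited by the number of arrays.

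Group means were fitted to all 22810 probe sets with limma 3.58.1 in R 4.3.3 (lmFit, eBayes). Calls required a Benjamini-Hochberg adjusted p under 0.05, over all probe sets, together with a change of 2-fold or more. The code was tested on simulated data. Loci came from the platform table (13436 probe sets) and, for 98 more, from Data S1. Its columns of fold changes and p-values were read only for the sign that identifies the arrays. Named genes were the members, the 3 genes nearest to each, the genes of each list that were called, and up to 4 per list by mean level. Members and lists were chosen with earlier results of these data known. The lists of bud dormancy and epidermis genes hold no gene with a named probe set.

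Same-numbered arrays of NAA and mock deviated together (correlations 0.32, 0.38 and 0.45), so that their numbers pair them, whereas the pairs with NAA+BA gave 0.04 to 0.51. A replicate block was therefore an alternative. Further alternatives were an adjusted p under 0.01, no fold threshold, leaving out dim probe sets, renewed quantile normalization, median centring, an intensity trend and robust prior, weights for arrays, fits of the 6 arrays compared, leaving out single arrays, exchanged names and, for the nearest genes, Pearson's r.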

Additional observations from a re-analysis of the deposited data

How the results depend on the processing

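The calls of FAF1, FAF2 and FAF4 against mock were the same under every alternative other than exchanged names, and no FAF gene changed its call with the replicate block (FAF3 in the first step 1.14, adjusted p = 0.0305 from limma, in the second step FAF2 0.20 and FAF4 0.20, adjusted p = 0.958 and 0.950), a filter on dim probe sets, quantile normalization, median centring, no fold threshold or only the arrays compared. With the block, probe sets with a larger first step were 1.01% in place of 0.267%. At an adjusted p under 0.01, FAF3 was not called in the first step (1.14) and 0 members had different steps (FAF2 2.80, FAF4 1.09). With an intensity trend and a robust prior, 1 member had different steps, as FAF4 (1.09) missed the threshold (adjusted p = 0.0515 from limma). With array weights, 2 members, FAF1 (1.23) and FAF3 (1.56), were called in the second step. With names exchanged, 4 members were called lower in the first step (FAF1 -1.86, FAF2 -3.00, FAF3 -1.14, FAF4 -1.30), 4 higher in the second (2.99, 3.19, 2.62 and 1.50 in that order) and 0 between NAA+BA and mock (1.13, 0.20, 1.48 and 0.20), and first minus second was -4.85, -6.19, -3.75 and -2.80, with 4 calls. Without single arrays, the first step of FAF3 lay between 0.93 and 1.40, the second step of FAF2 between -0.059 and 0.48, and first minus second between 2.39 and 3.29 for FAF2, -0.68 and 0.0015 for FAF3 and 0.93 and 1.20 for FAF4, with 0 to 2 members called. FAF3 minus FAF4 in the first step lay between -0.35 and 0.084 and FAF2 minus FAF4 in the second between -0.25 and 0.21, or at 0.047 with quantile normalization. The causes were not tested.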
